A study of Homo sapiens with 9 samples.

Results

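RECQL5 is a member of the RecQ family of DNA helicases, and it binds RNA polymerase II (RNAPII). The peaks that RNAPII formed along genes in HEK293, a line of human embryonic kidney cells, were compared between cells that received the RECQL5 hairpin shRNA5 and cells that received the control hairpin. Every peak in the deposited RNAPII list of each of these cultures was taken, which gave 5287 peaks for the control hairpin and 23698 peaks upon shRNA5, or 28985 of the 142069 peaks in the 5 RNAPII lists of the series. The hairpins were delivered with lentivirus to HEK293 cells. The control is labelled as a control shRNA, while the study's methods name an empty pLKO.1 vector, so it may carry no hairpin. RNAPII was precipitated with the antibody 4H8, which binds all forms of the polymerase, and peaks were called against a mouse IgG control. The series holds an IgG library for each of these hairpins. Each list came from 1 library, so the cultures cannot be separated from their hairpins, no test between them was possible, and the 95% intervals given here cover counting error only.

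RNAPII gathers just past the transcription start site (TSS), where it pauses before release into the gene body, and it slows again past the polyadenylation site, where transcripts are cleaved. A peak is a stretch with more ChIP reads (tags) than the IgG background, so a list shows where enrichment passed the caller's threshold, not how much polymerase was there in all. A peak was called a promoter peak where it touched 500 bp on either side of the TSS of a protein-coding transcript. A 3' end peak touched no promoter but touched 500 bp before to 2000 bp past the end of a gene. A gene-body peak touched neither, but touched a transcript between those zones. Peaks could thus run beyond their zone. A gene gained a peak in a zone where the control list had none there and the shRNA5 list had at least 1.

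The RECQL5 gene itself (chr17:73622934-73663234, GRCh37/hg19, minus strand) had 0 peaks in the control list and 0 upon shRNA5, so these lists cannot show the knockdown. Of 6 genes chosen as markers of HEK293 cells, 3 had a peak in the control list and 4 upon shRNA5. VIM, KRT8 and KRT18, which encode intermediate filaments, had one in both lists. NEFL had a promoter peak of 39 tags upon shRNA5 alone, and PAX2 and NEFM had none in either list. KRT8 and KRT18 had the same promoter tags, 75 and 113, and may share 1 peak. Of 15 markers of liver, blood, muscle, fibroblasts and endothelium, 0 had a control peak and 2 had a peak upon shRNA5. Tags within peaks summed to 842310 over 14.2 Mb in the control list and to 3778665 over 63.4 Mb upon shRNA5, or 59.3 and 59.6 tags per kb. The lists differed in scale. Among peaks of 75 to 100 tags, the median significance score (10 times the negative log10 of the caller's p-value) was 84.4 in the control list and 118.4 upon shRNA5, while the median fold enrichment over background was 12.2 and 7.02. At equal tags the control peaks thus carried higher fold enrichment and lower scores, and the part this took in the gains below was not tested.

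Sequences at the summits of gained peaks show what kind of DNA lay beneath them. They were read from GRCh37 in 200-bp windows around the summit, cut back where a UTR or coding exon began and written in the direction of the gene, for the first 2 genes of each kind of gain whose summit lay in no UTR or coding exon. ARIH1, which led the gene bodies, was passed over because its summit lay in an annotated UTR. Capitals mark CG dinucleotides, which are dense at many promoters.
PCBP2, gained promoter peak (chr12:53878368-53878567, plus strand): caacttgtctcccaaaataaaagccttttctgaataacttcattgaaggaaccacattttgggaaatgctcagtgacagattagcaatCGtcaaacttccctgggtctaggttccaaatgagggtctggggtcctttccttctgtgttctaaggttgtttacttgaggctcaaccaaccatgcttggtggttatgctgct
CEBPG, gained promoter peak (chr19:33864802-33864980, plus strand): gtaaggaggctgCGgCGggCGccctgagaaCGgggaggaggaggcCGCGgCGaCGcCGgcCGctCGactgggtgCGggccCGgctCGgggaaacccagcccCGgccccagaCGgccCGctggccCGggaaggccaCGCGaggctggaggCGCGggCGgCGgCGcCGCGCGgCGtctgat
NIPBL, gained gene-body peak (chr5:36944227-36944426, plus strand): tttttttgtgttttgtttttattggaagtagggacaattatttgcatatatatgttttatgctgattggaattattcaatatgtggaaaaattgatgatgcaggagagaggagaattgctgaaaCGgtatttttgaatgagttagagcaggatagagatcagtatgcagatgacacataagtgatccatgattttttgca
IARS1, gained gene-body peak (chr9:94991800-94991999, minus strand): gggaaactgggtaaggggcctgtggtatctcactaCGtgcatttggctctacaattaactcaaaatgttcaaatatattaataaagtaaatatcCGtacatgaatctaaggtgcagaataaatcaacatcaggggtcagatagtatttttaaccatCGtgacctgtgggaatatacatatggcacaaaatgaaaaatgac
ZNF207, gained 3' end peak (chr17:30710304-30710503, plus strand): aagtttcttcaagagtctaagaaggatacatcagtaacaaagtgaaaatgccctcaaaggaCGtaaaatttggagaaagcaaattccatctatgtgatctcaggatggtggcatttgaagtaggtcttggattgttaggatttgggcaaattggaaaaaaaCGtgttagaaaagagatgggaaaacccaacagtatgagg
THOC1, gained 3' end peak (chr18:219219-219418, minus strand): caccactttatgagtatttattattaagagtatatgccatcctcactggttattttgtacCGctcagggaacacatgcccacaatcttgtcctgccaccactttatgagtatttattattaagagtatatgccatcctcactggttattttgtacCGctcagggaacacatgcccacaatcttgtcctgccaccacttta

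The CEBPG window, in the first intron next to the TSS, held 29 CG dinucleotides in 179 bp and was 19.6% A and T. The NIPBL and IARS1 windows, deep in introns, held 1 and 3 CG dinucleotides in 200 bp and were 68.0% and 63.5% A and T. The PCBP2 window had 1 CG, and its summit lay 3522 bp past the end of the gene rather than at the TSS. The THOC1 window was a tandem repeat, in which the bases matched those 95 bp further on at 100% of positions. Short reads from such a repeat have more than one possible origin.

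The same was counted in the windows of all peaks. Promoter summits with no control peak beneath (5532 peaks) had a median of 13 CG dinucleotides per 200 bp (95% interval, 12 to 13), and those over a control peak (3015 peaks) had 13. Gene-body summits with no control peak (8879 peaks) were 62.0% A and T (61.5 to 62.0%), against 60% (59.0 to 61.0%) for those over a control peak (560 peaks). 3' end summits were 59.0% A and T (58.5 to 59.5%) without a control peak and 57.0% (56.0 to 58.0%) with one. Peaks found upon shRNA5 alone thus lay on promoters as rich in CG as the shared ones, and on slightly more A and T in bodies and at 3' ends.

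Short motifs were counted in the genes themselves. TATAAA, the core of the TATA box, stood on either strand in the 250 bases before the TSS of 7.21% (6.33 to 8.20%) of genes with a promoter peak in both lists. It stood there in 4.52% (3.98 to 5.14%) of genes that gained a promoter peak and in 9.45% of all promoters. GGGCGG, the letters of the GC box, was found on either strand in 62.3% (60.6 to 64.1%) of the first, 68.4% (67.1 to 69.7%) of the second and 54.3% of all promoters. AATAAA, the polyadenylation signal, stood on the gene's strand in the last 50 bases of 62.7% (60.9 to 64.4%) of genes that gained a 3' end peak and of 59.2% of all genes. The promoters called upon shRNA5 alone therefore held the TATA letters less often, and the GC box letters more often, than those called in both lists. These are matches of letters only.

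Peak number was higher upon shRNA5 in every zone, and most so in gene bodies. Promoter peaks numbered 2971 in the control list and 8547 upon shRNA5, or 2.88-fold (2.76 to 3.0). Gene-body peaks numbered 1072 and 9439, or 8.81-fold (8.27 to 9.38). 3' end peaks numbered 879 and 3316, or 3.77-fold (3.50 to 4.06). There were thus 0.361 gene-body peaks per promoter peak in control cells (0.337 to 0.387) and 1.10 upon shRNA5 (1.07 to 1.14). The 3' end peaks per promoter peak were 0.296 (0.274 to 0.319) and 0.388 (0.373 to 0.404).

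How large this was, and its direction outside promoters, depended on how the lists were cut. When each list was cut to its 5287 highest scores, promoter peaks numbered 2971 and 3139, and gene-body peaks 1072 and 741, which is 0.691-fold (0.630 to 0.759). With peaks of at least 10-fold enrichment only, gene-body peaks numbered 651 and 337, or 0.518-fold (0.454 to 0.590), and 3' end peaks 647 and 585, or 0.904-fold (0.809 to 1.01), an interval that includes 1. With a significance score of at least 100, gene-body peaks numbered 282 and 3535, or 12.5-fold (11.1 to 14.2). The direction in gene bodies was thus turned by a minimum enrichment and by equal list length. Promoter peaks stayed higher upon shRNA5, at 1.06-fold (1.005 to 1.11) in the lists of equal size and 1.56-fold (1.49 to 1.64) at 10-fold enrichment. Both lists hold fewer peaks than the study's methods mention, the control list by the larger share, so the fold in all peaks between the deposited lists is larger than those counts would give.

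**Figure D1:**
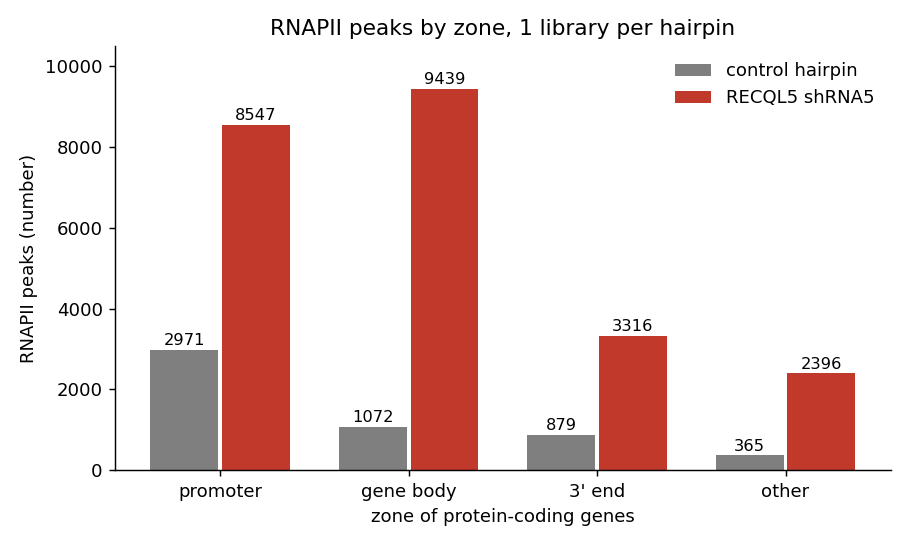
RNAPII peaks (number, vertical axis from 0) in each zone of protein-coding genes (horizontal axis) for the control hairpin (grey) and RECQL5 shRNA5 (red), 1 library each, with the count above each bar. Gene-body peaks go from 1072 to 9439 and overtake promoter peaks, which go from 2971 to 8547.

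Of 19405 protein-coding genes, 2990 had a promoter peak in the control list and 7898 upon shRNA5. Gains numbered 4930 genes for the promoter (25.4% of all genes), 3420 for the gene body (17.6%) and 2854 for the 3' end (14.7%). A promoter peak was lost at 22 genes, a gene-body peak at 172 and a 3' end peak at 350. Most of those body and 3' end losses were changes of zone: at 151 of the 172 and 337 of the 350 genes, the control peak was overlapped by an shRNA5 peak of another zone. A gene's promoter was that of its longest coding transcript, which misses some genes: ACTB, which encodes beta-actin, was counted as having none, although a peak of 1315 tags in control cells and 2030 upon shRNA5 covered its 3' part. With the TSS of any coding transcript, promoter gains numbered 5313. With shRNA7, the other RECQL5 hairpin, which was compared with the same control library, 6670 genes gained a promoter peak, 4600 a gene-body peak and 4131 a 3' end peak.

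Most gained peaks lay where no control peak was called, rather than over a control peak that had widened. A gain needs a zone without a control peak, so little overlap was likely from the start. No control peak lay anywhere under the shRNA5 peak at 4774 of the 4930 promoter gains, 3397 of the 3420 body gains and 2704 of the 2854 3' end gains. The summit was within 1000 bp of the TSS at 4528 of the promoter gains. Gained peaks had fewer tags and lower scores than the others of the shRNA5 list. The strongest promoter peak of a gene had a median of 84 tags and a score of 137.2 where it was gained, against 204 tags and 427.5 where the gene had one in both lists. For gene bodies these medians were 80 tags and 95.9 against 202 tags and 255.6, and for 3' ends 110 tags and 142.5 against 404 tags and 626.1. Gained peaks with a score of at least 100 made up 67.3% of the promoter gains, 46.8% of the body gains and 67.1% of the 3' end gains.

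**Figure D2:**
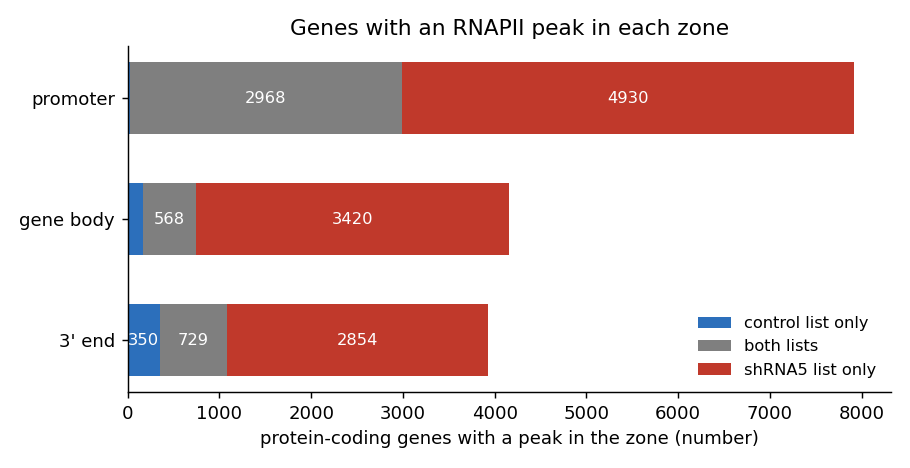
Protein-coding genes (number, horizontal axis) with an RNAPII peak in the promoter, gene body or 3' end, split into genes with a peak in the control list only (blue), both lists (grey) and the shRNA5 list only (red). The red part is the longest in each zone, with 4930, 3420 and 2854 genes.

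The gains did not all fall on genes that were already called in control cells. A peak that touched any coding promoter counted for no gene body or 3' end, so a gene without a peak in its zones could still be overlapped by one. CDT1 and NDUFB10 were such genes, with control peaks of 493 and 668 tags. Of 15593 genes with no control peak in any zone, 9819 also had none upon shRNA5, and 2475 gained a promoter peak alone. Another 785 gained promoter and body peaks, 561 promoter and 3' end peaks, 576 all of these, and 1377 a body or 3' end peak without a promoter peak. Of 2249 genes with only a promoter peak in control cells that kept it, 1097 stayed that way, 447 added a body peak, 295 a 3' end peak and 410 both. Among genes with promoter peaks in both lists and no control body peak, 38.2% (36.4 to 40.1%) gained a body peak. Among genes whose promoter was called upon shRNA5 alone, 32.1% (30.7 to 33.4%) gained one. The corresponding shares for the 3' end were 33.0% (31.2 to 34.9%) and 26.7% (25.5 to 28.0%).

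The genes with most tags in a newly called promoter peak were sought among those with no control peak from 500 bp before the TSS to 2000 bp past the end and whose shRNA5 promoter peak touched no other gene's coding TSS, a limit that left out genes with more tags such as SRSF1, HNRNPL and EIF5. They were PCBP2, an RNA-binding protein of C-rich sequences, CEBPG, a bZIP transcription factor, ZNF227, a zinc finger protein, and ARHGAP33, a GTPase-activating protein. SHISA4, a membrane protein, ASF1A, a histone H3 and H4 chaperone, NBPF1, of a multicopy family, and STXBP5, a regulator of vesicle fusion, completed the 8. CEBPG (chr19:33864615-33873592) had 0 control peaks and 1 peak of 14704 bp with 1796 tags upon shRNA5, a score of 1000.72 and a 13.1-fold enrichment, with the summit 266 bp past the TSS in its first intron. ASF1A (chr6:119215316-119230336) had 0 control peaks, and upon shRNA5 a promoter peak of 980 tags with 27.6-fold enrichment and its summit 74 bp past the TSS, besides a 3' end peak of 345 tags. At both genes the summit lay near the TSS and the peak ran mainly downstream, over all of CEBPG and much of ASF1A.

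Other strong gains had their summit away from the named promoter. The PCBP2 peak ran for 41069 bp with 4661 tags, and a control peak lay under its far part. The SHISA4 peak had 1030 tags and its summit at −7579 bp from the TSS, which is upstream, over 1 control peak. The ARHGAP33 peak had 1181 tags and its summit at −2071 bp, over 2 control peaks. The summits at NBPF1 and STXBP5 lay at −2432 bp and −1694 bp. ZNF227 (1293 tags) and NBPF1 (845 tags) belong to families of similar sequence in which short reads may be misplaced, and their scores were 192.56 and 152.57 despite the many tags. STXBP5 had 835 tags and a score of 74.19.

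A second selection, made after these values were seen, kept genes with no control peak in the gene or under the peak, no other coding TSS within 10000 bp and the summit within 1000 bp of the TSS. It was led by SRSF1, a splicing factor of the SR family, with 4134 tags over 26931 bp, and it went on with CEBPG, ZNF227 and ASF1A. ZBTB2, a zinc finger transcription factor, followed with 689 tags, TNFRSF6B, a decoy receptor, with 674, SEC14L1 with 661 and MTFR1L, a mitochondrial protein, with 616. With shRNA7 the promoter peaks of SRSF1, CEBPG and ZBTB2 had 5564, 2283 and 3153 tags, and TNFRSF6B had none.

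Some of the most heavily tagged genes of the shRNA5 list had no control peak at all. HNRNPL, an RNA-binding protein, had 0 peaks in control cells, 1 peak with 3360 tags upon shRNA5 and 1 with 6807 tags upon shRNA7. EIF5, a translation initiation factor, went from 0 peaks to 2185 tags, PSMC5, a proteasome ATPase, to 2214 tags, and HNRNPH1, another RNA-binding protein, to 2456 tags. HSP90AA1, a cytosolic chaperone, had 0 control peaks and 1420 tags in 2 peaks. None of these absences measures RNAPII in control cells, and at some heavily tagged genes with peaks in both lists the tags differed less. GAPDH, a glycolytic enzyme, had 716 and 1052 tags, EGR1, an immediate early transcription factor, 2763 and 2480, and MAT2A, which makes S-adenosylmethionine, 1270 and 1959. These genes were chosen with their values known. Of the 500 shRNA5 peaks with the highest scores, 9 had no control peak beneath, of the top 1000 64, and of the top 5000 1850.

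The score did not follow the tags everywhere. Of 390 shRNA5 peaks with at least 1000 tags, 33 had a score below 200, and the lowest was 50.39. Of 63 such control peaks, 16 had a score below 200, and the lowest was 54.18. Some peaks with many tags thus stood close to the lowest score of the list, 50, in both lists. Scores below 200 made up a larger share of these peaks in control cells. Their median score was 425.8 in the control list and 1324 upon shRNA5. The part this took in the absences above was not tested.

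Among genes with a promoter peak in both lists and no control gene-body peak, the 8 with most tags in new body peaks were ARIH1, NIPBL, IARS1, PUM2, EPHA7, CSTF3, NUP214 and MARCHF6. NF1, which encodes the Ras regulator neurofibromin, joined them by number of peaks. ARIH1 (chr15:72766671-72895328), an E3 ubiquitin ligase, had 1 promoter peak of 312 tags in control cells. Upon shRNA5 it had a promoter peak of 648 tags, 20 body peaks with 3320 tags and 2 3' end peaks with 276 tags. NIPBL (chr5:36876871-37066515), which loads cohesin on DNA, had 110 promoter tags in control cells and 899 upon shRNA5, with 19 body peaks and 2571 tags in them. At both genes the control list held the promoter alone, while the shRNA5 list held a series of peaks through the gene.

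IARS1, the isoleucyl-tRNA synthetase, had 13 new body peaks with 2213 tags, and its promoter peak went from 111 to 838 tags. PUM2, an RNA-binding translational repressor, had 13 with 1598 tags, and EPHA7, an ephrin receptor, 15 with 1557 tags. CSTF3, a subunit of the cleavage stimulation factor for 3' end formation, had 10 with 1380 tags. NUP214, a nuclear pore protein, had 9 with 1303 tags, MARCHF6, a ubiquitin ligase of the endoplasmic reticulum, 8 with 1299 tags, and NF1 14 with 1294 tags. The strongest body peak of each of the 9 had no control peak beneath it, and the fold enrichment of these ranged from 4.49 at NF1 to 11.45 at CSTF3. All 9 genes were longer than 75 kb, from 76.9 kb at CSTF3 to 282.8 kb at NF1.

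Body peaks were also found in genes with no control peak anywhere. The 6 with most of them, chosen after their values were seen, were led by EIF4G3, a translation initiation factor, with 36 body peaks and 3021 tags upon shRNA5. TLK2, a kinase of chromatin assembly, had 20 with 2056 tags, DYRK1A, a protein kinase, 17 with 3229 tags, NCKAP1, an actin regulator, 16 with 1301 tags and UBE3C, a ubiquitin ligase, 14 with 1414 tags. DNAH17, an axonemal dynein, had 17 with 6327 tags, but its most heavily tagged peak, of 1645 tags, scored 50.39. With shRNA7 the body peaks of EIF4G3, DYRK1A, NCKAP1 and UBE3C numbered 57, 23, 31 and 20. Those of TLK2 and DNAH17 were fewer than upon shRNA5, at 12 and 2.

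Body gains differed with gene length. Among genes with a promoter peak in both lists and no control body peak, 6.96% (5.39 to 8.95%) of those under 10 kb gained a body peak. The share was 46.8% (43.2 to 50.4%) from 10 to 30 kb, 56.6% (53.2 to 60%) from 30 to 100 kb and 53.8% (47.1 to 60.4%) from 100 to 300 kb. Above 300 kb it was 41.2% (26.4 to 57.8%), from 34 genes. Counting peaks, the fold in body peaks over control was 2.31 (1.53 to 3.49) in the shortest genes and 3.79, 6.78 and 15.1 (11.2 to 20.3) in the next classes, and it was 28.3 (9.47 to 84.8) in the longest, which held only 3 control body peaks. Body peaks per 100 kb upon shRNA5 were highest at 10 to 30 kb (5.14) and lowest above 300 kb (0.433). A longer gene has more room for a peak, so these shares describe where gains fell and not a rate per length.

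**Figure D3:**
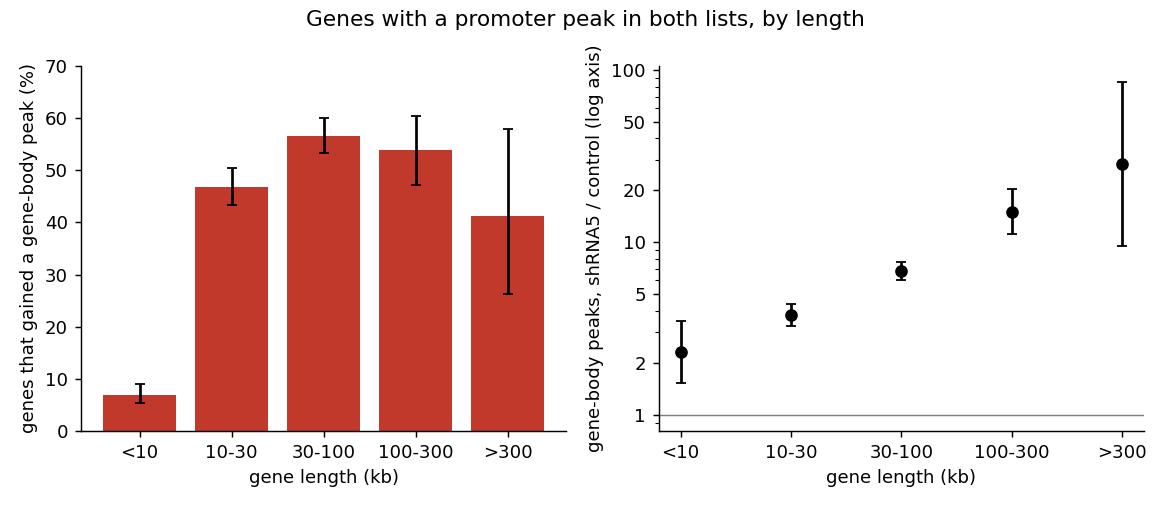
Genes with a promoter peak in both lists, by gene length (kb, horizontal axis). Left, share of those without a control gene-body peak that gained one (%, bars from 0), and right, fold in the number of gene-body peaks, shRNA5 over control (log axis), both with 95% counting intervals. The share is 6.96% under 10 kb and 41.2% to 56.6% in the longer classes, while the fold goes from 2.31 to 28.3.

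Within 1248 genes of at least 30 kb that had promoter peaks in both lists, body summits lay at a greater distance in kb from the TSS upon shRNA5, while their shares by relative position had intervals that overlapped. Of the gene cut into 4 equal parts, the part next to the TSS held 35.4% (30.5 to 40.6%) of 342 control summits and 30.1% (28.4 to 31.8%) of 2775 summits upon shRNA5. The median distance past the TSS was 20.8 kb (17.0 to 24.1) and 28.7 kb (27.1 to 29.8), and the fold in body peaks was larger in longer genes. The part next to the end held 21.1% and 21.7%. Coding exons held 3.92% (2.91 to 5.25%) of control body summits and 3.35% (3.0 to 3.73%) of those upon shRNA5, with intervals that overlapped. UTRs held 10.1% (8.41 to 12%) and 6.06% (5.60 to 6.56%), and the rest lay in introns or between annotated exons.

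Among genes with a promoter peak in both lists and no control 3' end peak, the 8 with most tags in a gained 3' end peak were ZNF207, THOC1, PHF3, HEATR1, KIF5B, RARS2, HSP90B1 and TIMM50. At all 8 the strongest 3' end peak lay over 1 or 2 control peaks, so these peaks took in control peaks of another zone. At ZNF207 (chr17:30677176-30708904), a zinc finger protein of the mitotic spindle, the peak covered 21965 bp with 2205 tags, and its summit lay 1500 bp past the end. At THOC1 (chr18:214520-268047), a subunit of the THO complex of mRNA export, it had 1317 tags with the summit at −4799 bp from the end, inside the gene, in the repeat shown above. HSP90B1, the endoplasmic reticulum HSP90, had 3 body peaks in the control list and none upon shRNA5, where 1 peak of 874 tags reached its end.

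Genes with a promoter peak in both lists whose 3' end peak had no control peak beneath and its summit past the end were picked after their values were seen. TRNT1, which adds CCA to tRNAs, led them with 0 tags in the control list and 761 upon shRNA5, the summit 2311 bp past the end, while its promoter peak went from 107 to 160 tags. A single peak of 746 tags served AKIRIN2, a nuclear factor, and ORC3, an origin recognition subunit, which end towards each other, so it cannot be assigned to either. ZNF587 had 732 tags, CNOT2, of the CCR4-NOT deadenylase complex, 714, TRIM23 712, CDC5L, a splicing factor, 679 in 2 peaks, and SNRPD1, a core spliceosomal protein, 643. The summits at ZNF587, TRIM23 and CDC5L lay 5316, 7738 and 4249 bp past the end, beyond the 2000 bp of the zone. Whether these peaks belong to a neighbouring gene was not tested. With shRNA7 the 3' end peaks of TRNT1 and CNOT2 had 1448 and 724 tags.

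Over all 3' end peaks the summit lay further past the end of the gene upon shRNA5. The median was 555 bp (456 to 665) in the control list and 878 bp (818 to 936) upon shRNA5, and 901 bp (830 to 972) for the gained ones. The share of summits past the end was 64.7% (61.5 to 67.8%) and 72.6% (71.1 to 74.1%).

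Promoter peaks found in both lists were larger upon shRNA5. Of 2971 control promoter peaks, 2935 (98.8%) were overlapped by an shRNA5 peak, and the tags of the overlapping peaks were 2.08-fold (2.04 to 2.11) those of the control peak at the median. They were higher at 2893 of the 2935. Part of this was length, since tags per kb of peak were 1.34-fold (1.34 to 1.35). For peaks that matched 1 to 1, the tag ratio was 1.94 (1.91 to 1.97) at 2443 promoter peaks, 2.24 (2.08 to 2.38) at 504 gene-body peaks and 2.72 (2.59 to 2.87) at 489 3' end peaks. Fold enrichment went the other way in gene bodies, where its ratio was 0.753 (0.728 to 0.785), and was 0.963 (0.950 to 0.981) at promoters. The study's methods state that the compared libraries had similar numbers of reads, but the exact totals were not used here and the tag ratio carries any difference that remained. The summits were a median of 63 bp (57 to 67) apart at promoters and 507 bp (417 to 620) apart in gene bodies.

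The widening at promoters was larger on the side of the gene. At 1531 genes with a promoter peak in both lists and no other coding TSS within 10000 bp, the downstream edge lay a median of 824 bp past the TSS in control cells and 1501 bp upon shRNA5. Its median shift was 453 bp (404 to 519), and it moved outward at 1342 genes. The upstream edge went from 759 to 964 bp, with a shift of 185 bp (174 to 202). The downstream shift exceeded the upstream shift at 1002 of the 1531 genes, by a median of 241 bp (201 to 290). The summit lay a median of 42 bp past the TSS in control cells and 38 bp upon shRNA5. At the 1364 genes with 1 control peak under the shRNA5 promoter peak, the shifts were 354 bp (318 to 404) downstream and 182 bp (167 to 196) upstream. The downstream edge lay at least 10000 bp past the TSS at 31 genes in the control list and at 109 upon shRNA5.

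**Figure D4:**
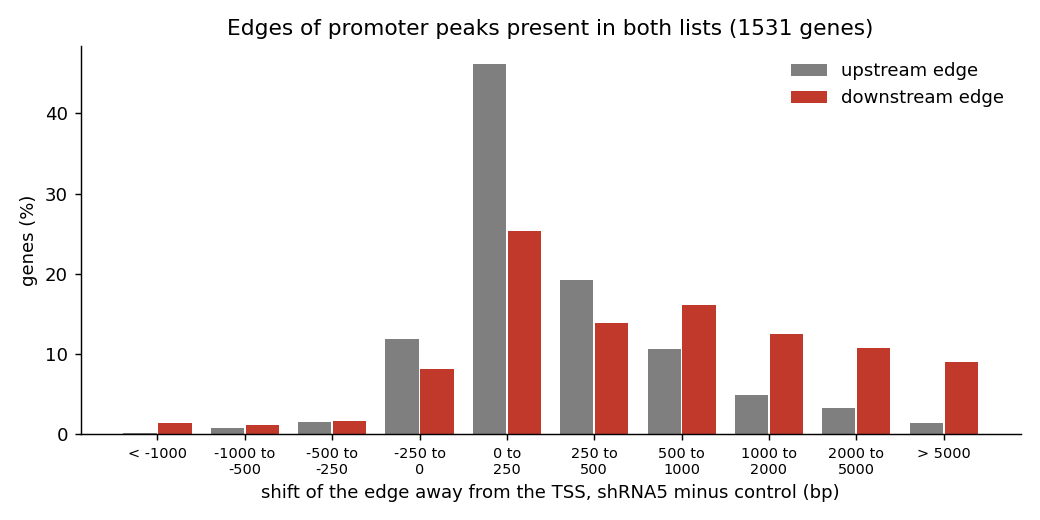
Shift of the downstream (red) and upstream (grey) edge of promoter peaks at 1531 genes, shRNA5 minus control (bp, horizontal axis, positive away from the TSS), as a share of genes (%, vertical axis from 0). Shifts above 5000 bp make up 9.08% of downstream edges and 1.37% of upstream edges.

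The longest shifts joined control peaks into 1. At TRA2B, a splicing regulator, the downstream edge went from 1398 to 28889 bp past the TSS and the tags from 177 to 3082, while the upstream edge went from 488 to 512 bp. At HNRNPC, which binds nascent transcripts, the edge went from 16279 to 37931 bp and the tags from 1400 to 4100. At NUFIP2, which partners the fragile X RNA-binding protein, it went from 932 to 22051 bp, at MATR3, a nuclear matrix RNA-binding protein, from 7176 to 22627 bp, and at CCT4, a chaperonin subunit, from 3259 to 18608 bp. Under the shRNA5 promoter peak lay 5 control peaks each at TRA2B, NUFIP2 and CCT4 and 4 each at HNRNPC and MATR3, so stretches that were separate peaks in control cells were 1 peak upon shRNA5.

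The gene lists differed in how many of their promoters the control list already held. Promoter peaks were present in both lists at 76 of 79 cytosolic ribosomal protein genes, and 0 gained one, against the 25.4% of all genes. Only 3 of the 79 had no control promoter peak and could gain one. At all 76 the promoter tags were higher upon shRNA5, with a median ratio of 2.17 against 2.01 over all 2968 genes with both peaks. Gene-body peaks were gained at 3 of these 79 short genes, 3.80% against 17.6%. They were lost at 6, against 172 of all 19405 genes, so that the genes with one went from 10 to 7. 3' end peaks were gained at 4 (5.06% against 14.7%). They were lost at 18, against 350 of all 19405 genes, so that the genes with one went from 23 to 9. How many of these losses were changes of zone was not counted. Among the genes with gains was RPL31, with 586 and 1165 promoter tags, and upon shRNA5 3 body peaks of 528 tags and a 3' end peak of 450 tags. RPS3 was another, with 3 body peaks of 153 tags. Its control promoter peak had 166 tags and that upon shRNA5 1199, but the latter lay over 2 control peaks with 720 tags together.

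The transcription machinery was called in control cells at 15 of 41 promoters of RNAPII subunits and elongation factors, and at 35 upon shRNA5. Gains were at 20 promoters (48.8%), 18 gene bodies (43.9%) and 12 3' ends (29.3%), against 25.4%, 17.6% and 14.7% of all genes. For every list, the shares of all genes include 9819 of 19405 genes with no peak counted in any zone of either list. Of these 41 genes only 1 had none. A promoter gain also needs a promoter without a control peak, and 4930 of 16415 such genes gained one. Where the promoter was called upon shRNA5 alone or in both lists, 32.1% and 38.2% of genes without a control body peak gained one. For 3' ends these shares were 26.7% and 33.0%. CDK12, a kinase of the RNAPII C-terminal domain, had 188 and 351 promoter tags, and 10 body peaks with 1093 tags upon shRNA5 against none. Its relative CDK13 had 73 and 173 promoter tags and 11 new body peaks with 675 tags. SUPT5H, the SPT5 subunit of the pausing and elongation factor DSIF, had no control peak, and 329 promoter tags and 3 body peaks of 481 tags upon shRNA5. POLR2A, the largest RNAPII subunit, had peaks in all zones in both lists, with 710 and 1529 promoter tags, 2 and 3 body peaks, and 499 and 445 body tags, and its shRNA5 promoter peak lay over 2 control peaks.

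Of 38 genes for the replication helicase and fork factors, 17 had a promoter peak in control cells and 34 upon shRNA5. Gene-body gains were at 21 of them, 55.3% against 17.6%, and promoter gains at 18, 47.4% against 25.4%. ORC2, an origin recognition subunit, had no control peak, and 219 promoter tags, 10 body peaks of 779 tags and 2 3' end peaks of 375 tags together upon shRNA5. POLA1, the catalytic subunit of polymerase alpha, had none and then 75 promoter tags and 10 body peaks of 689 tags. CDT1, which licenses origins, was called gained with 1125 tags, but its shRNA5 peak overlapped a control peak of 493 tags that began in the gene. The median length of this list was 33.4 kb, against 24.6 kb for all genes.

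Among 12 RecQ helicases and topoisomerases, promoter gains were at 4 (33.3%), body gains at 3 (25%) and 3' end gains at 2 (16.7%), against 25.4%, 17.6% and 14.7% of all genes. With 12 members these shares stood close to those of all genes, while 4 of the 7 members without a control promoter peak gained one. TOP1, the topoisomerase that relaxes supercoils of transcribed DNA, had 46 and 116 promoter tags, with 8 body peaks of 670 tags and a 3' end peak of 117 tags upon shRNA5 alone. BLM, another RecQ helicase, had 130 and 308 promoter tags and 5 new body peaks of 452 tags. TOP2A, the topoisomerase of dividing cells, had 2 body peaks of 616 tags in control cells and 4 of 1563 tags upon shRNA5. Of 20 genes of common fragile sites, which are very long (median 1154 kb), 1 had a promoter peak in the control list and 9 upon shRNA5. A promoter peak was gained at 8 (40.0% against 25.4%), a body peak at 4 (20% against 17.6%) and a 3' end peak at 1 (5.00% against 14.7%). EXOC4, of the exocyst, had 62 promoter tags and 1 body peak of 59 tags, and RAD51B, a recombination factor, 36 promoter tags and 1 body peak of 88 tags, with none for either in control cells.

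Of 60 nuclear genes for respiratory chain subunits, 24 had a promoter peak in control cells and 53 upon shRNA5. Gains were at 29 promoters (48.3%), 15 bodies (25%) and 20 3' ends (33.3%), against 25.4%, 17.6% and 14.7% of all genes. NDUFB10 of complex I led them with 1120 tags, but its peak overlapped a control peak of 668 tags that began past the TSS zone. UQCRQ of complex III had no control peak and 821 tags upon shRNA5. Of 31 proteasome subunits, 12 gained a promoter peak (38.7% against 25.4%) and 12 a body peak (38.7% against 17.6%). PSMB7 had no control peak, and 62 promoter tags, 4 body peaks of 462 tags and a 3' end peak of 261 tags upon shRNA5. PSMD14 had 117 and 156 promoter tags and 8 new body peaks of 672 tags.

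Of 45 translation factors, 30 and 43 had promoter peaks, and 13 gained one (28.9% against 25.4%), or 13 of the 15 without a control promoter peak. A body peak was gained at 17 (37.8% against 17.6%), led by EIF4G3. EIF3B had 71 and 144 promoter tags and 5 new body peaks of 604 tags. Of 34 splicing factors of the SR and hnRNP families, 26 and 31 had promoter peaks, and 5 gained one (14.7% against 25.4%). Only 8 of the 34 had no control promoter peak, so 5 of 8 (62.5%) gained one, against 4930 of 16415 for all genes. Among genes that could gain a promoter peak, the direction was thus the opposite. A body peak was gained at 0 (against 17.6%). PCBP2, SRSF1, HNRNPL and PTBP1, the last a repressor of exons with 698 tags upon shRNA5, were among the 5. Body peaks were listed at 11 of the 34 in control cells and at 9 upon shRNA5. A peak that touched a promoter could not count as a body peak. The shRNA5 promoter peaks of PCBP2 and SRSF1 ran for 41069 and 26931 bp. At TRA2B a control body peak was listed, while upon shRNA5 only a promoter peak, of 3082 tags, was. These counts thus do not measure RNAPII in the gene bodies.

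Of 35 heat shock protein genes, 22 and 31 had promoter peaks, and 10 gained one (28.6% against 25.4%), or 10 of the 13 without a control promoter peak. There were 8 body gains (22.9% against 17.6%) and 9 body losses, against 172 losses among all 19405 genes. Where DNAJA1 and HSPA9 lost body peaks, their promoter tags went from 180 to 2157 and from 158 to 1159. How many of the 9 were changes of zone was not counted. CCT3, a chaperonin subunit, had no control peak, and 4 body peaks of 377 tags upon shRNA5 without a promoter peak at its longest transcript. Of 17 glycolysis enzymes, 5 and 12 had promoter peaks, and 7 gained one (41.2% against 25.4%). ENO1, enolase, had a control 3' end peak, and upon shRNA5 a separate promoter peak of 1854 tags that no control peak overlapped. PKM, a pyruvate kinase, had 481 and 1209 promoter tags, the latter in a peak over 2 control peaks, and 3 new body peaks of 511 tags. Of 23 genes of cholesterol synthesis, 6 and 15 had promoter peaks, and 9 gained one (39.1% against 25.4%). IDI1, an isomerase of this pathway, had no control peak, and 328 promoter tags, 1 body peak of 138 tags and a 3' end peak of 180 tags upon shRNA5.

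Stress genes were spread across both outcomes. Of 24 genes of the integrated stress response, 8 and 20 had promoter peaks, and 12 gained one (50% against 25.4%). CEBPG led them, and DDIT3, a transcription factor of this response, had 900 tags in a peak that lay over a control peak of 398 tags beside its promoter. GARS1, the glycyl-tRNA synthetase, had 7 body peaks of 596 tags and no control peak. Of 20 p53 targets, 9 and 18 had promoter peaks, and 9 gained one (45.0% against 25.4%). TNFRSF10B, a death receptor, had a body peak in control cells, and 183 promoter tags and 2 3' end peaks of 109 tags together upon shRNA5 alone. Of 25 immediate early genes, 13 and 19 had promoter peaks, and 6 gained one (24.0% against 25.4%), or 6 of the 12 without a control promoter peak. There were 3 body gains (12% against 17.6%). KLF6, a zinc finger factor, had 1196 tags in 1 long peak over 2 control peaks, and SRF, the serum response factor, had 112 promoter tags and 2 body peaks of 149 tags where the control list held none. The members and their order were chosen with results of these data known, and each list is a description.

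**Figure D5:**
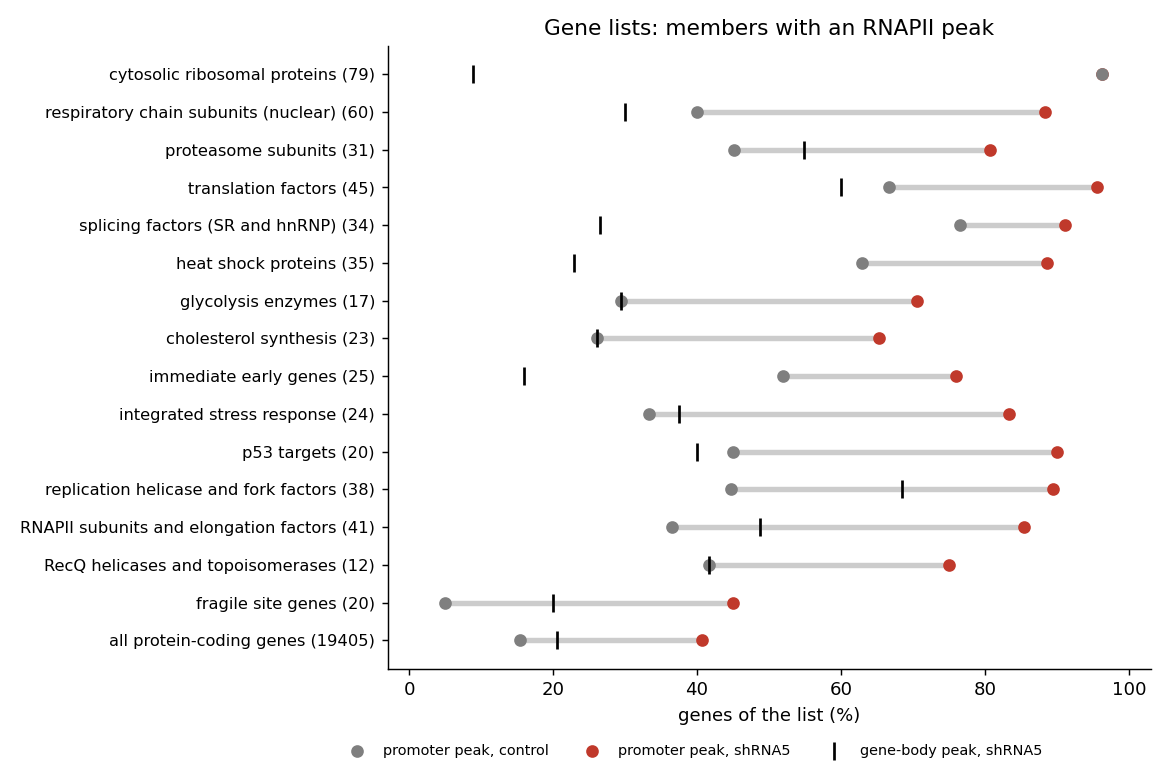
Share of the members of each gene list (%, horizontal axis, number of members in brackets) with a promoter peak in the control list (grey) and upon shRNA5 (red, hidden behind grey for the ribosomal proteins) and with a gene-body peak upon shRNA5 (black bar). Ribosomal protein genes hold 76 of 79 promoter peaks in both lists, and all protein-coding genes go from 2990 to 7898 of 19405.

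Few control peaks had no shRNA5 counterpart. They numbered 136 of 5287, with 36 at promoters, 13 at 3' ends and 68 in gene bodies, and a median score of 69.1 against 87.8 for the rest. An shRNA7 peak lay over 58 of the 136. The 5 with the highest scores were at WDR26, at the divergent start of IGFLR1 and U2AF1L4 next to KMT2B, at the shared start of CCT5 and ATPSCKMT, at MCM3 and at DHX9.

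Most of these genes belonged to stretches of several control peaks. MCM3 (chr6:52128812-52149679), a subunit of the replicative helicase, had 4 control peaks with 1143 tags from 2000 bp before to 2000 bp past the gene, and 0 peaks with either RECQL5 hairpin. CCT5 (chr5:10250392-10266501), a chaperonin subunit, had 3 with 892 tags and likewise 0 with either. DHX9, an RNA helicase, had 8 with 1912 tags in control cells and 1 with 934 tags upon shRNA5. KMT2B, a histone methyltransferase, had 4 with 1029 tags and 1 with 213 tags. WDR26, of a ubiquitin ligase, lost 1 body peak of 477 tags, but its region held 1067 tags in control cells and 2800 upon shRNA5. MCM3 and CCT5 thus run opposite to SRSF1 and HNRNPL, with peaks in control cells alone.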

How the data were processed

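RNAPII and IgG ChIP-seq libraries of HEK293 cells were sequenced by the authors on an Illumina GAIIx. The submitters' processing notes name CASAVA 1.8, Bowtie 0.12.7, MACS 1.4.2 and build hg19, and per the study's methods peaks were called against IgG. The lists were deposited by the authors with tag counts per peak, a significance score (10 times the negative log10 of the p-value), a fold enrichment and an FDR in percent per peak. Deposited scores start near 50, at 35 tags in the control list and 27 upon shRNA5. The study's methods state similar read numbers for the compared knockdown libraries, and their exact totals were not used here. Both lists hold fewer peaks than the methods mention, the control list by the larger share.

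Peaks were placed against GENCODE 44 lifted to GRCh37 (88655 protein-coding transcripts, 19405 genes of chromosomes 1 to 22 and X, each by its longest transcript), and 0 peaks ran beyond a chromosome end. Intervals were Wilson intervals for shares, the same turned into odds for folds of counts, and order statistics for medians (Python 3.11.15, scipy 1.17.1, pandas 2.3.3). No p-value was computed. The zone assignment was tested on simulated peaks. Named genes were the 8 with most tags in gained promoter peaks (no control peak in the gene, no other coding TSS under the peak), the 8 with most tags in gained body or 3' end peaks and the 4 with most gained body peaks (promoter peak in both lists, none in that zone in the control list), the genes at the 5 strongest unmatched control peaks, the 5 largest edge shifts and leading members of the gene lists. Other genes named in the text, such as GAPDH, EGR1 and MAT2A, were chosen after their values were seen. The members and lists were chosen with earlier results of these data known. Alternatives were a minimum score of 100, a minimum enrichment of 10, lists of equal length, merging of peaks under 1000 bp apart, a promoter window of 1000 bp, zones by summit and a 3' end zone of 5000 bp.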

Additional observations from a re-analysis of the deposited data

How the results depend on the processing

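No paired analysis was possible because the groups hold 1 library each, and for the same reason no library could be left out. Of 58 values under alternatives, 32 stayed the same within counting error or 1.5 times for gene counts, 23 moved and 3 reversed, and the cause was not tested. For promoter, gene-body and 3' end peaks in turn, the fold was 4.81, 12.5 and 4.79 at a score of at least 100, 1.56, 0.518 and 0.904 (0.809 to 1.01, which includes 1) at an enrichment of at least 10, and 1.06, 0.691 and 1.23 in lists of equal length. The genes that gained a promoter, body or 3' end peak numbered 1991, 182 and 428 at that enrichment and 993, 301 and 781 at equal length, and 1929 gained a body peak at that score. With zones by summit the fold was 2.70 for promoters and 7.38 for bodies, and with a 3' end zone of 5000 bp it was 4.14 for 3' ends. The median tag ratio of shared promoter peaks was 2.26 at equal length and 2.22 after merging, and, in alternatives chosen after seeing the data, 1.94 for 1 to 1 pairs and 1.34 per kb. The median downstream shift was 791 bp at that score, 673 bp at equal length and 703 bp after merging. Further alternatives chosen after seeing the data kept gains within 1.5 times: the TSS of any transcript (5313 promoter gains) and no control peak beneath the gained peak (4774, 3397 and 2704 gains). The exact read totals, not used here, limit every tag ratio between lists.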

Other observations

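Genes of long non-coding RNAs, which the comparison of protein-coding genes leaves out, followed with fewer members. Of 8980 that start more than 10000 bp from any coding TSS, 188 had a peak at their start in the control list and 547 upon shRNA5, so that 370 gained one (4.12%, 95% interval 3.73 to 4.55%) and 11 lost it. MALAT1, a nuclear RNA of splicing speckles, had none in the control list and a peak of 2223 tags upon shRNA5. PARD6G-AS1 had 866 tags and LINC01963 had 692, with none in the control list.

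Peaks outside promoters, gene bodies and 3' ends numbered 365 in the control list and 2396 upon shRNA5. Those 2 to 10 kb past the end of a coding gene made up 37.8% (33.0 to 42.9%) and 40.9% (39.0 to 42.9%), with intervals that overlapped. Those at the start of a long non-coding RNA gene made up 35.6% (30.9 to 40.7%) and 17.8% (16.3 to 19.4%). The fold in peaks over control differed between chromosomes, from 2.95 on chromosome 19 to 8.09 on chromosome 4.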
